A study of Mus musculus with 27 samples.

Results

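The second day of culture of wild-type mouse fetal liver cells was examined by comparing arrays taken at 48 h with arrays taken at 24 h. These 4 arrays, 2 at each time, were chosen by genotype and culture time alone, out of 27 arrays in the whole series. All cells came from livers of embryos at stage E14.5, were untreated, and were kept in a medium rich in fetal bovine serum. The wild type is abbreviated WT, and 3 WT arrays of uncultured cells (0 h) are given beside the results as a description. The other arrays carried a knockout of Rb1 (Rb1KO), of p107, whose gene symbol is Rbl1 (p107KO), or of both (DKO). The step from 24 h to 48 h was also available in Rb1KO (4 arrays at 24 h and 2 at 48 h) and in p107KO (2 arrays at 24 h and 1 at 48 h). The sources used here do not give the mouse strain, the part of each gene that was altered, or whether replicate arrays stem from different embryos. The p-values therefore measure only the spread between these arrays, which may be technical.

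Red cells of the embryo are made mainly in the liver at this stage, where dividing erythroid precursors are the most common cells. Such precursors take up iron, make heme and globin, and leave the cell cycle while they mature. Cells that copy their DNA express genes bound by E2F transcription factors, which are held in check by the pocket proteins Rb1, p107 and p130 and by inhibitors of cyclin-dependent kinases. The liver also holds hepatoblasts, macrophages, megakaryocytes, granulocyte precursors and stroma. Interferons act on many cell types and switch on antiviral genes, whose promoters often hold a short response element.

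Most interferon response genes rose and most DNA replication genes fell, as described below. Some promoters of each list, though fewer than those without, hold short elements of known factors. The windows below run from 250 bases before to 50 bases after the RefSeq start on build GRCm38.p6 (mouse), and they are shown because, among the members whose window holds the element, these genes had the largest changes. They were chosen after their values were seen. The core of the interferon-stimulated response element, GAAA and GAAA with any 2 bases between them, was searched on both strands and is in capitals in the promoters of Ifit1 (chr19:34640639-34640938, plus strand), Gbp2 (chr3:142620413-142620712, plus strand) and Oas1a (chr5:120907476-120907775, minus strand, with 2 overlapping matches).
Ifit1: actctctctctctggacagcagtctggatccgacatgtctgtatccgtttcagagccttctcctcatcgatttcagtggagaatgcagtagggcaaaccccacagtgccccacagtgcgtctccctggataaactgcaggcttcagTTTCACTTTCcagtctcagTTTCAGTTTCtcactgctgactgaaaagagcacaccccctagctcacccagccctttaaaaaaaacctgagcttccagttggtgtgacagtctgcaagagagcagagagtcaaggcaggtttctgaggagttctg
Gbp2: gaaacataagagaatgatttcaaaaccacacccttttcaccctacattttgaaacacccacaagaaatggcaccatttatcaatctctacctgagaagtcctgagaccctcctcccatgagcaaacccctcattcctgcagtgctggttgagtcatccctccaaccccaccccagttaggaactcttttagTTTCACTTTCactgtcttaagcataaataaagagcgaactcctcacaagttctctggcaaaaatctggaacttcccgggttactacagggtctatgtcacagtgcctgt
Oas1a: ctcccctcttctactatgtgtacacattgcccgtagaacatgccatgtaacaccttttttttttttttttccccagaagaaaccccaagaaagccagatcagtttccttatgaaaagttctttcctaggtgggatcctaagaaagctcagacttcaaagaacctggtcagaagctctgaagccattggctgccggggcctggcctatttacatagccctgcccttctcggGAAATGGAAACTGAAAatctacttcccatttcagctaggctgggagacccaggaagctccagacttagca
The letters TTTGGCGC and TTTCCCGC, forms of the E2F element, were searched on both strands and are in capitals in the promoters of Zfp367 (chr13:64152324-64152623, minus strand) and Cdc6 (chr11:98907901-98908200, plus strand).
Zfp367: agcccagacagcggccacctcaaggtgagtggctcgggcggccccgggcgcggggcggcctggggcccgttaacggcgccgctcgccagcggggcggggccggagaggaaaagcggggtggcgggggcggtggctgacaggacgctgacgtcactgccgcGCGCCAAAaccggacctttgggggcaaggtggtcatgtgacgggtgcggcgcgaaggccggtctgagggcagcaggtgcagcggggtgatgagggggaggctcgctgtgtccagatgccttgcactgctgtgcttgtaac
Cdc6: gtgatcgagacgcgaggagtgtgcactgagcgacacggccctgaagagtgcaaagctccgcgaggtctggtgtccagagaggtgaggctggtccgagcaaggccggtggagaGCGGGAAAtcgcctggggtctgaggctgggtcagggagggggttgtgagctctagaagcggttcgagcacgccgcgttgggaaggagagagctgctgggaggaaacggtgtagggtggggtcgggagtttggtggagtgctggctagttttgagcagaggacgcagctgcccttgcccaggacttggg
Of 24 promoter windows matched to 20 of the 25 tested interferon response genes, 10 held this element, a share of 41.7%, against 1131 of 32851 windows of all RefSeq genes (3.44%) and 340 of 11403 windows of tested genes (2.98%). Of 52 windows matched to 42 of the 49 tested replication genes, 18 held TTTGGCGC or TTTCCCGC, a share of 34.6%, against 514 of 32851 windows of all RefSeq genes (1.56%) and 352 of 11403 of tested genes (3.09%). A match describes letters in the window and says nothing about binding in these cells.

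Total RNA was read on an Affymetrix whole-genome mouse array, and the deposited values are MAS5 signals, a brightness per probe set on a linear scale. A gene's probe set with the highest mean stood for it, and after the dimmest 40% of genes were dropped 10916 remained for testing. Changes are given as the difference of log2(signal + 32), 48 h minus 24 h, ± SE from limma, with 2 arrays at each time. Signals are given for the first and second replicate in that order. The adjusted p-values are limma's Benjamini-Hochberg values over the 10916 genes, with a threshold of 0.05, and "rose" and "fell" are used only for genes past it. Across genes the WT arrays correlated at r = 0.973 between the replicates at 24 h and r = 0.966 between those at 48 h, and at r = 0.914 to 0.932 between the times. Array medians of the 27 arrays ran from 81.0 to 119, and the median change over all tested genes was 0.03. With arrays scaled to equal medians that median moved to -0.10, so small shifts of whole groups depend on the scaling. The Y-linked genes Eif2s3y and Kdm5d were at 47.4 or below in all 7 WT arrays. The mean of Eif2s3y over all 27 arrays was 500, so the knockout arrays include far brighter ones. How far the sex of the embryos enters the comparisons of WT with knockout arrays was not tested.

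Between 24 h and 48 h, 2755 genes passed the threshold, 25.2% of those tested. Of these, 1440 rose (13.2% of tested genes) and 1315 fell (12%). These 2 shares are the background for every list count below, and a short list can hold a few calls at that rate. The lists and their members were chosen with earlier results of these data known. A count above these shares is therefore a description and not a test. A change of 2-fold or more was reached by 941 of the risers and 489 of the fallers, and 4-fold or more by 59 and 17. In 2749 of the 2755 genes the 2 arrays at 24 h did not overlap with the 2 at 48 h. These genes were picked by their change in the same arrays, so the lack of overlap largely follows from that choice and is no separate support. The count was 1400 without the second 24 h replicate and 1694 without the first 48 h replicate. In bulk RNA, fewer cells of a type and less RNA of a gene per cell cannot be told apart, which holds for all results below.

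Genes of the cell cycle fell together on the second day. Among genes of G1/S transition and DNA replication that are targets of E2F, 38 of 49 fell and none rose, with a median change of -1.11 beside 0.03 over all genes. Among genes of G2 and mitosis, 40 of 50 fell and 1 rose, with a median of -0.98. The mean level of the mitotic genes on the log2 scale was 11.71 to 11.91 at 0 h, 12.29 and 12.12 at 24 h, and 11.27 and 11.19 at 48 h. The 48 h arrays thus lay below all 5 earlier WT arrays.

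Gins1, a subunit of the GINS complex of the replicative helicase, had signals of 3263 and 3171 at 24 h and 1143 and 919 at 48 h, after 2317 to 2866 at 0 h. The change was -1.62 ± 0.16 (adjusted p = 8.08e-07), a 3.07-fold lower signal on this scale. Gmnn encodes geminin, which blocks relicensing of origins, and went from 7699 and 9325 to 3175 and 2647 (-1.54 ± 0.15, adjusted p = 8.08e-07). Both genes were above their 0 h arrays at 24 h and below them at 48 h. Rfc4, a subunit of the clamp loader, went from 6943 and 8044 to 2533 and 2363, and Orc6, of the origin recognition complex, from 2311 and 2277 to 666 and 776. Their changes were -1.60 ± 0.18 and -1.63 ± 0.19 (adjusted p = 4.15e-06 and 7.52e-06). Slbp, the protein that binds the stem-loop of histone messages, went from 17335 and 15954 to 7179 and 5927 (-1.35 ± 0.15, adjusted p = 4.01e-06). The 2 genes of the printed E2F promoters behaved alike: Zfp367, a zinc finger protein, went from 2279 and 2133 to 652 and 725 (-1.64 ± 0.20), and Cdc6, the loader of the MCM helicase, from 5213 and 6223 to 2063 and 2006 (-1.47 ± 0.19). All of these kept their call when any of the 4 WT arrays was left out. With the mean over probe sets, however, Gins1 changed by -0.60 and its call was lost (adjusted p = 0.0622), and its dim second probe set went the other way (0.42).

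Among the mitotic genes, Cdc25c, the phosphatase that activates the mitotic kinase CDK1, went from 1601 and 1558 to 503 and 397 (-1.75 ± 0.17, adjusted p = 8.08e-07). Mad2l1, a spindle checkpoint protein, went from 9837 and 9803 to 3890.5 and 3619 (-1.38 ± 0.18, adjusted p = 1.88e-05). Tpx2, a spindle assembly factor, Prc1, which bundles microtubules of the central spindle, and Nek2, a centrosomal kinase, changed by -1.16 ± 0.14, -1.23 ± 0.16 and -1.05 ± 0.15. In each of these 5 genes both 48 h arrays were below every earlier WT array. The one member that rose was Cep55, a protein of the midbody at abscission, with a change of 0.92. It is named because it was the sole exception, but no member of the list rose with equal medians or with the mean over probe sets. Among the 11 replication genes that did not pass the threshold were Ccne2, Cdc25a, E2f2, E2f3 and Mcm4.

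**Figure D1:**
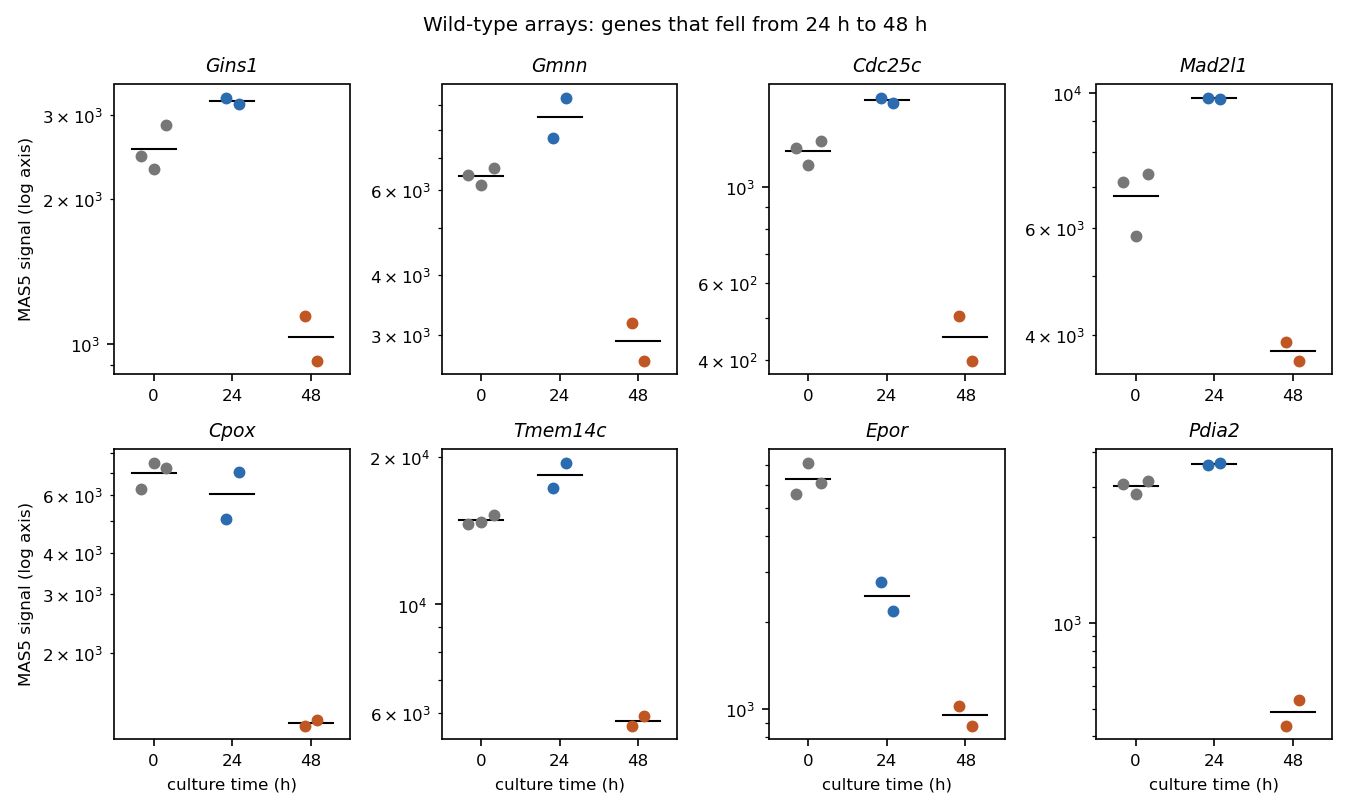
MAS5 signal (log axis) of 8 genes that fell, against culture time in hours, with 1 point per WT array (3 at 0 h, 2 at 24 h, 2 at 48 h) and a line at the mean. In every panel both 48 h arrays lie below both 24 h arrays, and for Pdia2 they lie at 436 and 536 after 3585 and 3668.

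The genes that govern entry into S phase moved both ways. Of 14 tested genes of G1 cyclins, their kinases, CDK inhibitors and pocket proteins, 3 rose and 3 fell, with a median of -0.02. Cdkn2c, the CDK inhibitor p18, fell from 4049 and 3195 to 1617 and 2111 (-0.95 ± 0.19, adjusted p = 0.00115) and kept its call without any 1 of the WT arrays. Cdkn1a, the CDK inhibitor p21 and a target of p53, was at 198 to 206 at 0 h, 11914 and 13813 at 24 h and 25666 and 28499 at 48 h. Its second-day change of 1.07 ± 0.29 (adjusted p = 0.00855) was lost without the first 24 h array (adjusted p = 0.0651) or the second 48 h array (0.0593). Cdkn1b, the inhibitor p27, went from 4648 and 4849 to 7242 and 10439.7 (0.87 ± 0.23, adjusted p = 0.00842), a call lost without the second 48 h array (0.135). Cdk6, a G1 kinase, rose by 0.83 ± 0.22 (adjusted p = 0.00887), which was lost without the second 24 h array (0.0740) or the first 48 h array (0.234). With equal medians the calls of Cdk6 (adjusted p = 0.132) and Cdkn1b (0.0922) were lost, and with only the 4 WT arrays in the fit that of Cdk6 (0.0524). All of these arrays at 48 h lay outside the range of those at 24 h.

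Of the pocket protein genes, Rbl1 went from 1583 and 1273 to 877 and 798 (-0.74 ± 0.27, adjusted p = 0.0465), and this call was lost without any 1 of the 4 arrays, with adjusted p-values up to 0.239. The call of Rbl1 was also lost under several other settings. Among them were the mean over probe sets (-0.44, adjusted p = 0.259), quantile normalization (0.0633) and no filter (0.0695). Rb1 was at 10309 and 8589 and then 5746 and 6583 (-0.61 ± 0.24, adjusted p = 0.0673), and its dim second probe set went the other way (0.99). Rb1 passed with only the 4 WT arrays in the fit (adjusted p = 0.0389), with only the 7 WT arrays (0.00974) and without the 4 least correlated knockout arrays at 0 h and 24 h (0.0147). Rbl2, which encodes p130, was at 418 and 400.0 and 437 and 443 (0.10 ± 0.34, adjusted p = 0.867). Ccnd3, the D-type cyclin of erythroid precursors, had a change of -0.94 ± 0.33 (adjusted p = 0.0386). Its call was also lost without any 1 array, where the change was -0.97 to -0.91. With the mean over probe sets Ccnd3 changed by only -0.13 (adjusted p = 0.689). The call was lost as well with no filter, after quantile normalization, with equal medians and without a variance trend.

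Targets of p53 and members of the BCL2 family rose in 12 of 28 cases and fell in none, with a median of 0.72. Bbc3, the proapoptotic protein PUMA, went from 348 to 448 at 0 h to 2537 and 2553 at 24 h and 7322 and 6574 at 48 h (1.44 ± 0.29 for the second day, adjusted p = 0.00121). Bid, which links death receptors to mitochondria, was at 446 and 462 and then 1063 and 923 (1.07 ± 0.23, adjusted p = 0.00192). Both kept their calls without any 1 array, and the Bid arrays at 48 h returned to about the 0 h range of 809.7 to 867. Pmaip1, the proapoptotic protein NOXA, rose by 1.20 ± 0.30 (adjusted p = 0.00538) with the call lost without the first 48 h array (0.0745). Xpc, a DNA damage sensor, rose by 1.09 ± 0.25 with the call lost without the second 24 h array (0.0871). The list's count fell to 6 without the first 24 h array and to 5 without either second replicate.

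Genes of heme synthesis fell, while most globin genes did not pass the test. Of 10 tested heme genes 6 fell and none rose, with a median of -1.15. Cpox, coproporphyrinogen oxidase, went from 5061 and 7015 to 1201 and 1251 (-2.25 ± 0.40, adjusted p = 3.97e-04), a 4.76-fold lower signal. Tmem14c, which moves a heme precursor into the mitochondrial matrix, went from 17307 and 19474 to 5654 and 5929 (-1.66 ± 0.17, adjusted p = 9.68e-07). Slc25a38, the mitochondrial glycine carrier, went from 2814 and 2058 to 772 and 852, and Uros, uroporphyrinogen III synthase, from 12929.8 and 10336 to 3493 and 5307. The changes were -1.53 ± 0.23 and -1.42 ± 0.19 (adjusted p = 8.75e-05 and 3.14e-05). Alad, the enzyme that makes porphobilinogen, changed by -1.33 ± 0.25 (adjusted p = 6.83e-04). Each of these 5 genes kept its call without any 1 WT array. The 4 heme genes not past the threshold were Alas2, Urod, Fech and Abcb10.

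Among 5 tested globin genes, Hbb-bh1, an embryonic beta-like globin, fell from 14062 and 13167 to 3556 and 8562 (-1.30 ± 0.32, adjusted p = 0.00470), and this call was lost without the first 48 h array (0.163). The median of the list was -0.72. Hbb-y, an embryonic beta-like globin, was at 64243 and 69526 at 24 h and 49389.8 and 61840.1 at 48 h. Hba-x, the embryonic alpha-like globin, was at 20155 and 25545 and then 7515 and 25028. For Hba-x the 2 arrays at 48 h differed more from each other than the arrays at 24 h did. The adult globin probe set named Hbb-b2 was at 24715 and 27083 and then 25686 and 33402 (0.18 ± 0.38, adjusted p = 0.772). Because globin genes resemble each other closely, 1 globin probe set may pick up several of them.

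Of 8 genes of iron uptake and storage 2 fell, with a median of -0.34. Slc11a2, the transporter that carries iron out of endosomes, went from 1197 and 1064 to 399.5 and 451 (-1.35 ± 0.17, adjusted p = 1.59e-05) and kept its call without any 1 array. Steap3, the endosomal ferrireductase, changed by -1.07 ± 0.28 (adjusted p = 0.00816), which was lost without the first 24 h array (0.0768) or the second 48 h array (0.113), and with the mean over probe sets (0.0855). Tfrc, the transferrin receptor, was at 45786 and 44654 and then 27500.5 and 32304 (-0.60 ± 0.23, adjusted p = 0.0635), and it passed under 6 alternative settings, with adjusted p-values of 0.00250 to 0.0382.

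Genes of the red cell membrane and blood groups fell in 9 of 21 cases and rose in none, with a median of -0.37. The count was 4 without the first array of either time. Icam4, the Landsteiner-Wiener blood group protein, went from 9720.0 and 7461 to 1332 and 2622 (-2.17 ± 0.26, adjusted p = 7.52e-06). Car1, the red cell carbonic anhydrase I, was at 371 to 469 at 0 h, 727 and 872 at 24 h and 172 and 121 at 48 h (-2.23 ± 0.28, adjusted p = 1.10e-05). Sptb, the erythroid beta spectrin, and Ermap, the Scianna blood group protein, fell with changes of -1.17 ± 0.27 and -0.70 ± 0.18 (adjusted p = 0.00266 and 0.00563). These 4 kept their calls without any 1 array, although the call of Sptb was lost with the mean over probe sets (-0.65, adjusted p = 0.0689). Pklr, the pyruvate kinase of red cells and liver, was among the 15 largest falls and went from 3174 and 4371 to 892 and 762 (-2.13 ± 0.35, adjusted p = 1.84e-04).

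Of 15 erythroid transcription factors 6 fell and 2 rose, with a median of -0.37. Klf1, the erythroid Kruppel-like activator of adult globin and heme genes, went from 18064 to 22302 at 0 h to 30663 and 30720.5 at 24 h and 12372 and 13514 at 48 h. Its second-day change was -1.25 ± 0.24 (adjusted p = 6.31e-04). Tal1, a partner of GATA1 in erythroid gene activation, went from 21487 and 17549 to 8308 and 11062 (-1.02 ± 0.19, adjusted p = 5.56e-04). Bcl11a and Sox6, which repress embryonic globin genes, both fell. Bcl11a went from 2169 and 2915 to 1019 and 948 (-1.33 ± 0.20, adjusted p = 7.81e-05), and Sox6 from 3929 and 3318 to 1157 and 1803 (-1.30 ± 0.22, adjusted p = 2.76e-04). Cited2, a CBP/p300-binding coregulator, rose from 2446 and 2194 to 5639 and 5585 (1.26 ± 0.18, adjusted p = 5.13e-05). All 5 kept their calls without any 1 array. Gata1 and Nfe2 did not pass the threshold.

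Of 12 genes of erythropoietin and KIT signalling 2 rose and 3 fell, with a median of 0.27. Without the first 24 h array 1 rose and 1 fell, and without the second none rose and 2 fell. Epor, the erythropoietin receptor, was at 5554 to 7166 at 0 h, 2768 and 2184 at 24 h and 1031 and 876 at 48 h (-1.34 ± 0.28 for the second day, adjusted p = 0.00132). It was lower at each later time without overlap between arrays. Socs2, a feedback inhibitor induced by STAT5, changed by -1.04 ± 0.26 (adjusted p = 0.00507), lost without the first 24 h array (0.0582) or with the mean over probe sets (-0.46, adjusted p = 0.230). Ptpn6, the phosphatase SHP-1, went from 1729.9 and 1165 to 2376 and 2871 (0.86 ± 0.19, adjusted p = 0.00189), lost without the second 24 h array (0.0697). Of 20 genes of late red cell clearance, which serve autophagy and the removal of proteins and organelles, 4 rose and none fell, with a median of 0.25. Among them Sqstm1, the autophagy receptor p62, went from 2887 to 3289.8 at 0 h to 10434 and 12949.7 and then 21201 and 28241 (1.07 ± 0.20, adjusted p = 5.21e-04). The other risers of that list lost their calls without at least 1 array, and its count was 1 without either second replicate and 2 without the first 24 h array.

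Interferon response genes rose, and 4 of the 15 largest rises were in that list. Of 25 tested members 19 rose and none fell, with a median of 1.55. The mean level of the list on the log2 scale was 7.96 to 8.04 at 0 h, 9.78 and 10.65 at 24 h, and 11.81 and 11.74 at 48 h. The 2 arrays at 24 h thus differed more from each other than those at 48 h, and without the first 24 h array the count was 9 and the median 0.99.

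Mx2, an antiviral dynamin-like GTPase, had the largest rise of the named genes. Its signals were 5.30 to 8.10 at 0 h, 17.8 and 81.7 at 24 h and 2199 and 1250.4 at 48 h (4.49 ± 0.75, adjusted p = 1.99e-04). The earlier values lie near the floor of the array, so the size depends on the added constant: with 100 in place of 32 the change was 3.59. Oasl2 and Oas1a belong to the 2'-5' oligoadenylate synthetase family, which senses double-stranded RNA. Oasl2 went from 2002 and 1256 to 20022 and 9662 (3.11 ± 0.60, adjusted p = 7.26e-04) and Oas1a from 1631 and 2826 to 9115 and 7519 (1.93 ± 0.32, adjusted p = 1.62e-04). Oas2, of the same family and not in the list, went from 259.9 and 695 to 2943 and 2376 (2.54 ± 0.40). Xaf1, an interferon-induced proapoptotic protein, was at 96.7 to 125 at 0 h, 1052 and 2422 at 24 h and 8451 and 12093 at 48 h (2.64 ± 0.47, adjusted p = 4.08e-04). Rtp4, an interferon-induced chaperone of the receptor transporter protein family, went from 1923 and 6604 to 18826 and 21193 (2.47 ± 0.45, adjusted p = 4.77e-04).

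Gbp2, a guanylate-binding protein induced by interferon gamma, was at 101 to 136 at 0 h and 155 and 164 at 24 h, and at 878 and 652 at 48 h (2.04 ± 0.33, adjusted p = 1.52e-04). Psmb9, a subunit of the immunoproteasome, likewise stayed at 348 and 329.5 at 24 h, close to its 0 h range of 279.5 to 334, and reached 1177 and 900.3 at 48 h (1.52 ± 0.21, adjusted p = 3.09e-05). Ifit1, whose product binds viral RNA, was instead already at 2436 and 8210.1 at 24 h, after 17.6 to 39.0 at 0 h, and reached 18315 and 22476 (2.17 ± 0.44, adjusted p = 0.00106). Outside the list, the interferon-induced gene Ifi27l2a went from 344 and 584 to 3888 and 3019 (2.85 ± 0.59), and Ifi44l from 127 and 351 to 2015 and 1273 (2.73 ± 0.49). Slfn5, a Schlafen family member, rose by 2.63 ± 0.48. All of the genes in these 2 paragraphs kept their calls without any 1 WT array. The 6 members not past the threshold were Mx1, Rsad2, Ifi35, Ifih1, Tap1 and Ifi27.

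**Figure D2:**
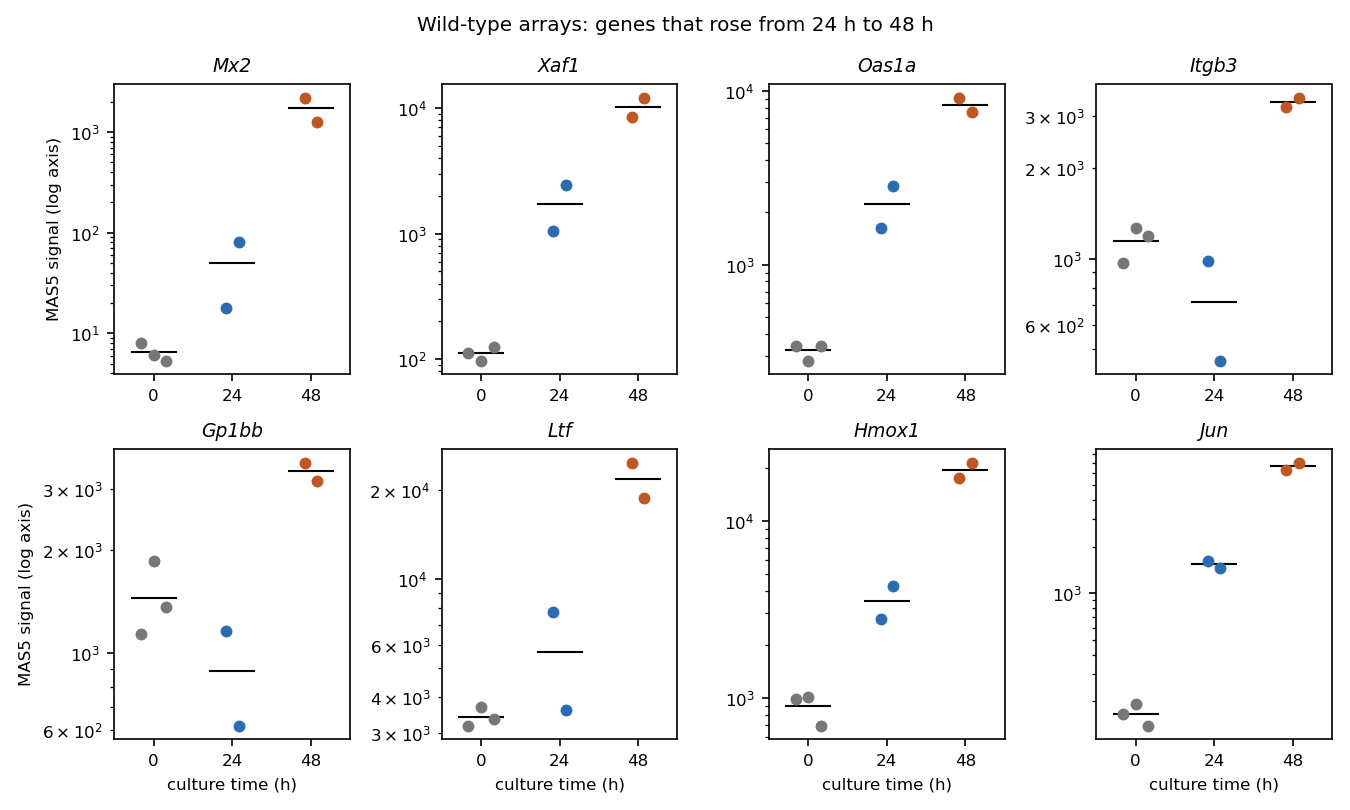
MAS5 signal (log axis) of 8 genes that rose, against culture time in hours, with 1 point per WT array (3 at 0 h, 2 at 24 h, 2 at 48 h) and a line at the mean. Both 48 h arrays lie above both 24 h arrays in every panel, and for Itgb3 they lie at 3196 and 3441 after 980.1 and 456.

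Of 20 megakaryocyte and platelet genes 18 rose and none fell, with a median of 1.65. The mean level of the list was 10.22 to 10.47 at 0 h, 10.18 and 9.45 at 24 h, and 11.46 and 11.42 at 48 h. Itgb3, the beta subunit of the platelet fibrinogen receptor, went from 980.1 and 456 to 3196 and 3441 (2.25 ± 0.29, adjusted p = 1.58e-05), after 971 to 1269.9 at 0 h. Gp1bb and Gp5, parts of the receptor for von Willebrand factor, rose as well. Gp1bb went from 1163 and 615 to 3585 and 3169.9 (1.95 ± 0.28, adjusted p = 5.12e-05), and Gp5 from 709 and 369 to 2026 and 2028 (1.92 ± 0.29, adjusted p = 8.11e-05). In all 3 genes the second 24 h array was the lowest of the 7 WT arrays. Plek, the platelet kinase substrate pleckstrin, went from 3537 and 2194 to 9432 and 8297 (1.66 ± 0.25), and Rab27b, which serves secretion of platelet granules, from 346 and 296 to 1954 and 1966 (2.50 ± 0.37). Of the platelet chemokines, Pf4 went from 13151 and 8489.9 to 34083 and 37036 (1.75 ± 0.28, adjusted p = 1.50e-04), and Ppbp from 4332 and 2344 to 13084 and 15568 (2.15 ± 0.36, adjusted p = 1.99e-04). All 7 kept their calls without any 1 WT array. Tubb1 and Nbeal2 did not pass the threshold.

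Of 17 neutrophil granule genes 14 rose and none fell, with a median of 1.19. The count was 4 without the second 24 h array, 5 without the first 48 h array and 9 without the second 48 h array. Mmp8, the neutrophil collagenase, went from 646 and 564 to 2906 and 2412 (2.08 ± 0.27, adjusted p = 2.10e-05). Ltf, lactoferrin of the secondary granules, went from 7720.3 and 3605 to 24834 and 18852 (2.03 ± 0.37, adjusted p = 4.99e-04). Elane, the elastase of primary granules, and Itgam, the integrin CD11b, rose by 1.88 ± 0.42 and 1.41 ± 0.32 (adjusted p = 0.00251 and 0.00253). These 4 kept their calls without any 1 array. The 3 members that did not pass were Mpo, S100a8 and S100a9, of which Mpo, the myeloperoxidase of primary granules, passed under 5 alternative settings with adjusted p-values of 0.00475 to 0.0408. S100a8, a calcium-binding protein of neutrophil cytosol, was at 63508 and 59639.8 and then 74868 and 75063 (0.28 ± 0.43, adjusted p = 0.679). Its 48 h values equal the highest signal on each of those arrays. Some other arrays had higher top signals: 76435 in the second WT array at 24 h, 90606 in the first Rb1KO array at 48 h and 154046 in the first p107KO array at 24 h. Whether a ceiling of the array limited the change of S100a8 was not tested.

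Macrophage genes rose in 7 of 19 cases and those of activated or lysosomal macrophages in 12 of 20, with none lower, and with medians of 0.88 and 0.98. The mean level of the macrophage list was 9.89 in the first and 8.98 in the second 48 h array, against 8.76 and 8.41 at 24 h. Without the first 48 h array the counts were 1 and 7, and without the second 24 h array 2 and 5. Fcgr1, the high-affinity receptor for IgG, went from 739 and 598 to 3608 and 2076 (1.99 ± 0.30, adjusted p = 6.75e-05). Lgals3, galectin-3, went from 1273 to 1311 at 0 h to 5363 and 4353 and then 17611 and 15313 (1.76 ± 0.27, adjusted p = 8.26e-05). Gpnmb, a transmembrane glycoprotein of lysosome-rich macrophages, was at 59.1 to 77.7 at 0 h, 2028 and 1486 at 24 h and 7116 and 4944 at 48 h (1.75 ± 0.39, adjusted p = 0.00257). The lysosomal proteases Ctsl and Ctsd rose by 1.51 ± 0.30 and 0.85 ± 0.18 (adjusted p = 0.00107 and 0.00144). These 5 kept their calls without any 1 array, although the call of Ctsl was lost with the mean over probe sets (0.86, adjusted p = 0.125). Adgre1, the marker F4/80, rose by 1.32 ± 0.30 (adjusted p = 0.00293), lost without the first 48 h array (0.0819) or the second 24 h array (0.0578).

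Of 17 tested chemokine and cytokine genes 9 rose and none fell, with a median of 1.14, and the count was 4 without the first 48 h array. Ccl6, a chemokine of myeloid cells, went from 278 and 214 to 802 and 734 (1.53 ± 0.26, adjusted p = 2.00e-04). Il1rn, the interleukin-1 receptor antagonist, went from 139.6 and 239 to 736 and 636 (1.73 ± 0.35, adjusted p = 0.00117). Both kept their calls without any 1 array.

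Of 9 tested mast cell and basophil genes 2 rose, with a median of 0.71. Csf2rb, the shared beta subunit of the receptors for interleukin-3, interleukin-5 and GM-CSF, went from 4302 and 5031 to 11960.1 and 14429 (1.49 ± 0.22, adjusted p = 6.65e-05), and the mast cell protease gene Cpa3 stayed at 1005 and 874 and 1199 and 1099 (0.28 ± 0.34, adjusted p = 0.592). Of 18 genes of stem and progenitor cells 9 rose and none fell, with a median of 0.80, and the count was 3 to 5 without 1 WT array. Spi1, the myeloid transcription factor PU.1, went from 529 and 405 to 1432 and 1297 (1.49 ± 0.30, adjusted p = 9.66e-04), and Slamf1, the marker CD150, from 968 and 658 to 1902 and 2673 (1.46 ± 0.30, adjusted p = 0.00121). Both of those kept their calls without any 1 array. Of 18 lymphoid genes 15 were on the array, and only 5 were bright enough to be tested. Of these 5 genes 3 rose, with a median of 1.18, a count that shrank without the second 24 h array. With no filter 3 of the 15 rose and 1 fell, with a median of 0.38. Of 11 genes of antigen presentation 5 rose, with a median of 0.81, 0 left without the second 24 h array and 2 or 3 without any other.

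Markers of the liver's own cells had dropped before 24 h and were uneven between the 48 h arrays. The mean level of the hepatoblast and hepatocyte list was 12.51 to 12.88 at 0 h and 7.49 and 7.57 at 24 h. At 48 h it was 8.96 in the first and 7.64 in the second array. Of 27 tested members 7 rose and none fell, with a median of 0.72, and the count was 1 without the first 48 h array or the second 24 h array, 2 without the first 24 h array and 12 without the second 48 h array. Afp, alpha-fetoprotein, was at 4317 and 4143 at 24 h and at 27417 and 7787 at 48 h (1.78 ± 0.51, adjusted p = 0.0125, or 0.286 without the first 48 h array). Krt8, a keratin of liver epithelium, was at 361 and 496 and then 3728 and 802 (1.96 ± 0.60, adjusted p = 0.0199, or 0.378 without that array). Ttr, the transport protein transthyretin, was at 249 and 423 and then 3445 and 578, after 36952 to 40149 at 0 h. Alb, albumin, was at 33622 to 41502 at 0 h, 2279.9 and 2242 at 24 h and 8331 and 1518 at 48 h, and did not pass the threshold (0.65 ± 0.62, adjusted p = 0.480). In these 4 genes the first 48 h array was far above the second, and for Afp a dimmer probe set went the other way (-0.72). The exception was Cebpa, a transcription factor that hepatocytes and granulocyte precursors share, which went from 376 and 318 to 1369.9 and 1308 (1.86 ± 0.29, adjusted p = 1.01e-04) and kept its call without any 1 array.

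Stromal genes rose in 9 of 18 cases, with a median of 1.05 and mean levels of 6.72 and 6.94 at 24 h and 8.03 and 7.52 at 48 h. The count was 1 without the first 48 h array and 4 without the second 24 h array. Timp3, an inhibitor of metalloproteinases held in the matrix, was at 599.9 to 766 at 0 h, 215 and 187 at 24 h and 1794 and 1258 at 48 h (2.72 ± 0.38, adjusted p = 3.69e-05), and kept its call without any 1 array. Fn1, fibronectin, went from 229 and 203 to 1543 and 514 (1.91 ± 0.41, adjusted p = 0.00178), lost without the first 48 h array (0.0710). Of 15 endothelial genes, with a median of 0.55, 1 rose, Esam, an adhesion molecule that platelets also carry, from 398 and 241 to 620.1 and 1199 (1.39 ± 0.28, adjusted p = 9.61e-04). The defining endothelial gene Cdh5, VE-cadherin, was at 18.7 and 100.3 at 24 h and 9.60 and 15.7 at 48 h, after 299 to 362 at 0 h. How far the higher hepatocyte, stromal and macrophage levels of the first 48 h array enter the changes of other genes was not tested.

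**Figure D3:**
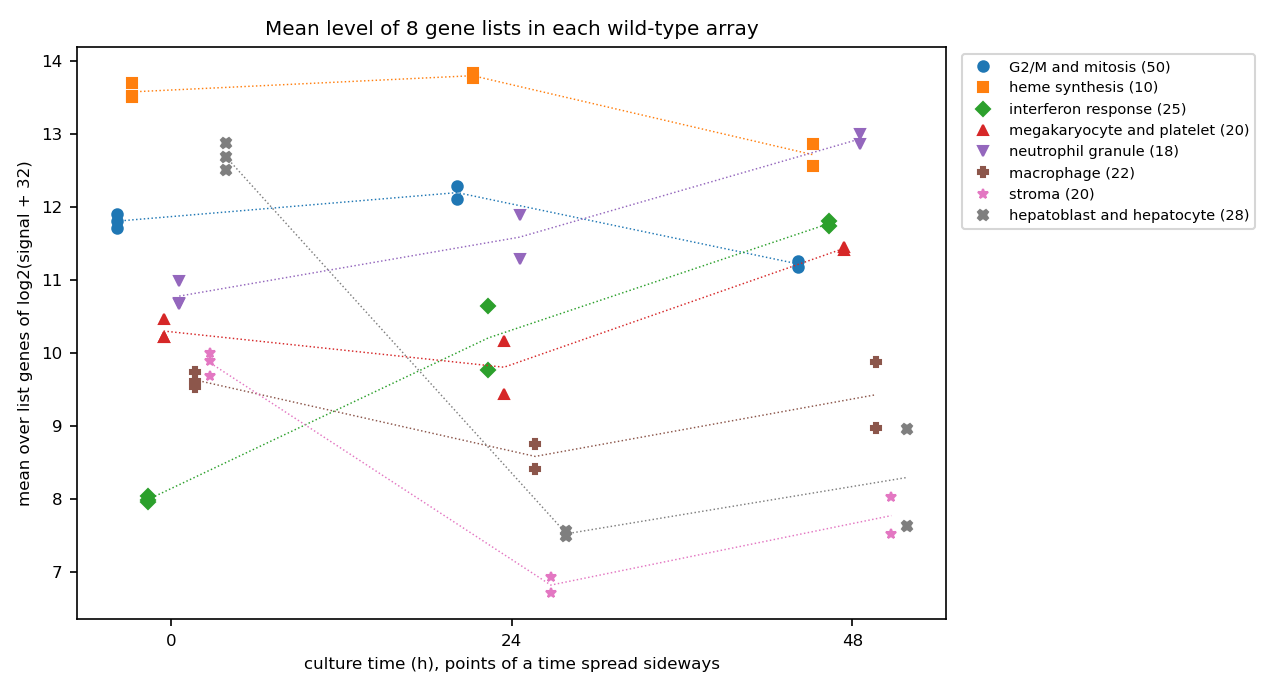
Mean over the genes of 8 lists of log2(signal + 32) in each WT array against culture time in hours (genes on the array in parentheses; dotted lines join the means of each time). The mitosis and heme lists are lowest at 48 h, the interferon, megakaryocyte and neutrophil lists highest, and the hepatocyte list drops from 12.51 or above at 0 h to 7.57 or below at 24 h and is split between the 48 h arrays.

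Immediate early genes, which code for transcription factors and regulators of message decay, rose in 8 of 19 cases and fell in 1, with a median of 0.81. Jun, a subunit of AP-1, was at 138 to 193 at 0 h, 1622 and 1465 at 24 h and 6252 and 7010.5 at 48 h (2.08 ± 0.28, adjusted p = 2.83e-05). Zfp36, which destabilizes cytokine messages, went from 1029.7 and 1252 to 3304 and 3197 (1.49 ± 0.21, adjusted p = 4.99e-05). The Kruppel-like factors Klf6 and Klf2 rose by 1.34 ± 0.21 and 1.55 ± 0.29. The member that fell was Dusp1, a phosphatase of MAP kinases, from 6174 and 4504 to 3034 and 2729 (-0.87 ± 0.18, adjusted p = 0.00134). These 5 kept their calls without any 1 array, and the count of risers was 5 without the second 24 h array.

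Of 23 genes of the integrated stress and unfolded protein responses 6 rose and 3 fell, with a median of 0.40. Ddit4, an inhibitor of mTORC1 signalling, went from 647 and 767 to 1617 and 2748 (1.54 ± 0.29, adjusted p = 5.49e-04). Dnajb9 and Edem1, which serve folding and disposal of proteins in the endoplasmic reticulum, both rose. Dnajb9 went from 3099 and 2836 to 8124 and 7687 (1.40 ± 0.21), and Edem1 from 1077 and 1150.0 to 2518 and 2228 (1.07 ± 0.17). By contrast Asns, asparagine synthetase, fell from 23535 and 20556 to 8843 and 11663 (-1.11 ± 0.18). Shmt2, an enzyme of mitochondrial one-carbon metabolism, fell from 3826 and 4097 to 1750.0 and 1669 (-1.20 ± 0.22). All 5 kept their calls without any 1 array. Of 14 antioxidant genes under NRF2 2 rose and none fell, and this count of risers lies near the 13.2% of all tested genes. Hmox1, which breaks heme down, was at 693 to 1017 at 0 h, 2771 and 4281 at 24 h and 17411 and 21354 at 48 h (2.47 ± 0.51, adjusted p = 0.00123). Slc7a11, the cystine importer, went from 195 and 241 to 636 and 1093 (1.80 ± 0.39, adjusted p = 0.00204), and its call was lost with an added constant of 1 (adjusted p = 0.0867). The list's median was 0.00. Of 13 heat shock genes 2 rose and 2 fell, near the 13.2% and 12% of all tested genes, with a median of -0.10. Each of these lost its call without at least 1 array. The small heat shock protein gene Hspb1 (1.77 ± 0.41) lost it only without the first 48 h array, where its change was 1.26.

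Of 19 genes of glycolysis and hypoxia 10 rose and 1 fell, with a median of 0.66, and the count of risers was 4 to 6 without 1 WT array. Hk2, a hexokinase, went from 866 and 905 to 2322 and 2042 (1.27 ± 0.24, adjusted p = 6.06e-04), and Slc2a3, a glucose transporter, from 6983 and 6373 to 11503 and 14265 (0.94 ± 0.17, adjusted p = 4.56e-04). Pgam1, a phosphoglycerate mutase, rose by 1.14 ± 0.22. All 3 kept their calls without any 1 array. Genes of oxidative phosphorylation fell in 14 of 36 cases and rose in none, with a median of -0.48. The count was 7 without the second 24 h array and 9 without the first 48 h array. Ndufv1 and Ndufs7, are subunits of complex I. Ndufv1 went from 7939 and 6474 to 2960.4 and 3260.0 (-1.20 ± 0.21, adjusted p = 3.81e-04), and Ndufs7 from 6758 and 8364 to 3590.2 and 3257 (-1.13 ± 0.21, adjusted p = 5.84e-04). Cyc1, cytochrome c1 of complex III, went from 13199 and 14069.8 to 8161 and 8346 (-0.72 ± 0.14), and Ndufb3, of complex I, from 4951 and 5098 to 2784 and 2839.5 (-0.83 ± 0.17). These 4 also kept their calls without any 1 array.

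Of 22 genes of MYC and ribosome biogenesis 2 rose and 3 fell, not above the background by much in either direction (13.2% and 12% of all tested genes). The median was -0.12. Odc1, ornithine decarboxylase, fell from 31424 and 30028 to 11229.9 and 11463 (-1.43 ± 0.18, adjusted p = 1.33e-05). Of the MAX partners that oppose MYC, Mxd1 rose from 5989 and 4930.4 to 10635 and 13267 (1.12 ± 0.17, adjusted p = 9.56e-05), whereas Mxd3 fell from 1115 and 853 to 206 and 306 (-1.83 ± 0.31, adjusted p = 2.76e-04). These 3 kept their calls without any 1 array. Of 25 cytosolic ribosomal protein genes 1 fell and none rose, although all 25 had a change below 0 and the median was -0.31. Of 17 cholesterol synthesis genes 3 fell, with 0 or 1 left without 1 WT array and a median of -0.20. Of 9 histone genes 2 rose and 1 fell, with a median of -0.11, and each lost its call without at least 1 array.

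Other settings moved some of these counts by more than 1.5 times. With arrays scaled to equal medians, 7 p53 and BCL2 family genes, 6 glycolysis and hypoxia genes, 4 macrophage genes, 4 stem and progenitor genes, 2 antigen presentation genes and 1 late clearance gene rose, and 4 iron genes fell. With the dimmest 60% of genes left out, fewer members were tested, which by itself lowers the counts. Then 7 of 18 p53 and BCL2 family genes, 5 of 8 stromal genes and 5 of 12 immediate early genes rose. The 1 lymphoid gene still tested rose. With no filter, dim members entered some lists and their medians moved toward that of all genes. Then 9 of 29 chemokine and cytokine genes rose, with a median of 0.64. Of 24 immediate early genes 7 rose and 1 fell, with a median of 0.43. With the mean over probe sets, 9 late clearance genes, 4 erythropoietin and KIT genes and 4 hepatocyte genes rose. With only the 4 WT arrays in the fit, 5 stromal and 4 hepatocyte genes rose. Without the 4 knockout arrays that correlated least with others of their time among those at 0 h and 24 h, 25 genes of oxidative phosphorylation, 5 ribosomal protein genes and 4 iron genes fell, and 5 endothelial genes rose. The medians of the G1 list and of the NRF2 list changed sign under at least 1 of these settings.

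**Figure D4:**
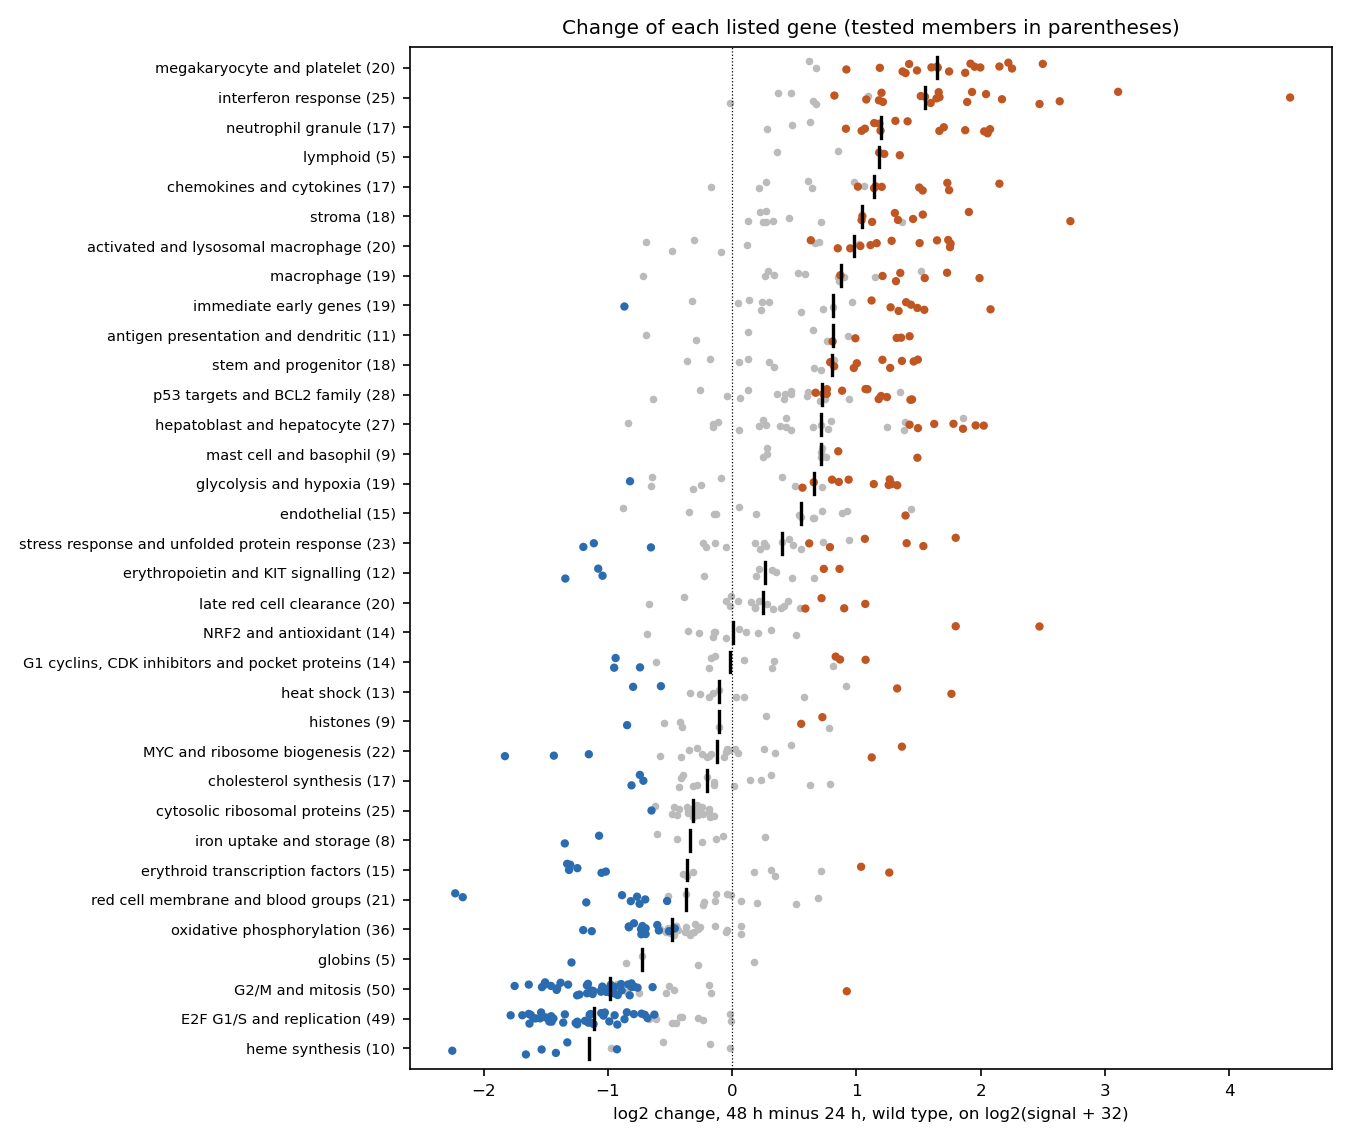
Log2 change from 24 h to 48 h in WT, on log2(signal + 32), of each tested gene of 34 lists (rows, tested members in parentheses; orange rose, blue fell, grey did not pass the adjusted p threshold of 0.05; black bar, median). The cell cycle and heme lists lie at the negative end and the megakaryocyte and interferon lists at the positive end.

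The 15 largest rises also held genes of no list. Rhbdf1, which encodes the rhomboid-like protein iRhom1, went from 698 and 1003 to 5215 and 5626 (2.65 ± 0.19, adjusted p = 1.14e-08). Ro60, an RNA-binding autoantigen, went from 723 and 511 to 3688 and 3838 (2.57 ± 0.31, adjusted p = 7.95e-06). Calcrl, the receptor subunit for adrenomedullin and CGRP, went from 833 and 547 to 3797 and 4039 (2.48 ± 0.33), and Ms4a4c, of the MS4A family of membrane proteins, from 365 and 535 to 2956 and 2288 (2.47 ± 0.32). The pairs of 48 h arrays of Rhbdf1, Ro60 and Calcrl were close to each other and far from those at 24 h.

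The largest fall among the named genes was that of Tnfrsf13c, the receptor for the B cell factor BAFF. It was at 268 to 331 at 0 h, 2732 and 3694 at 24 h and 317 and 424 at 48 h (-3.01 ± 0.29, adjusted p = 8.08e-07), so that the 48 h arrays were again near the 0 h range. Pdia2, a protein disulfide isomerase, was at 2851 to 3165 at 0 h and 3585 and 3668 at 24 h, and dropped to 436 and 536 (-2.83 ± 0.19, adjusted p = 5.64e-09). Tgm2, transglutaminase 2, went from 4889 and 5521 to 1156 and 877 (-2.33 ± 0.19, adjusted p = 7.61e-08). For Camsap2, which binds the minus ends of microtubules, the values were 1707 and 1673 and then 366 and 389 (-2.07 ± 0.20). Mgll, monoacylglycerol lipase, went from 1632 and 1058 to 259.5 and 321 (-2.07 ± 0.25), and Ssx2ip, a centrosomal protein, from 8736 and 7516 to 1886 and 2392 (-1.92 ± 0.23). The gene 6030468B19Rik went from 1417 and 1375 to 166 and 272 (-2.54 ± 0.31) and Nxpe2 from 1737 and 1811 to 401 and 444 (-1.99 ± 0.24). All 8, and the risers of the preceding paragraph, kept their calls without any 1 array. Endod1 and Oaf changed by -1.99 ± 0.53 and -1.93 ± 0.47, and their calls were lost without the first 24 h array (0.0622 and 0.0824) or the second 48 h array (0.0525 and 0.0901). Abcg4, a sterol transporter, also ranked among the falls (-2.13 ± 0.33), but its second probe set went the other way (0.28).

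In the knockout arrays, the genes targeted were read first. Rbl1 was at 70.3 to 168 in the 5 p107KO arrays, against 798 to 1746 in the 7 WT arrays. Rb1 was at 1507 to 5453 in the 11 Rb1KO arrays, against 5746 to 10309 in WT, and within Rb1KO it was 1507 to 2825 at 0 h, 2659 to 4433 at 24 h and 4207 and 5453 at 48 h. In DKO Rbl1 was at 84.5 to 123, and Rb1 was at 1377 and 1662 at 0 h, 4600 in the 24 h array and 5994 in the 48 h array, the last inside the WT range. In p107KO and Rb1KO the targeted gene did not overlap with WT, although the Rb1 signal of Rb1KO at 48 h lay close to that of WT at 48 h. Where the probe set of Rb1 lies relative to the alteration is unknown here.

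The same step in p107KO used no array of WT, but its 48 h group is 1 array and its spread is borrowed from the other groups of the fit. Of the 2755 genes called in WT, 2663 had a p107KO change of the same sign, a share of 96.7%, against 77.3% of all tested genes and 70.8% of those not called. The share was 96.3% of the risers and 97.1% of the fallers. Median changes in p107KO were -0.93 for the replication list, -0.72 for the mitosis list, -1.19 for heme synthesis, 1.31 for the interferon list and 1.61 for the megakaryocyte list. In WT these medians were -1.11, -0.98, -1.15, 1.55 and 1.65. In Rb1KO they were -0.42, -0.59, -0.90, 0.99 and 1.59. For Gins1 the change was -0.98 in p107KO and -0.84 in Rb1KO, beside -1.62 in WT. For Cpox it was -1.28 and -0.99, beside -2.25. Itgb3 gave 2.47 and 2.16, beside 2.25, and Xaf1 1.67 and 1.36, beside 2.64. These genes were named for their WT change, a choice that by itself favours larger values in WT. None of them was called in the tests of the difference between genotypes. In the stromal list the medians were 0.09 in p107KO and 0.31 in Rb1KO, beside 1.05 in WT.

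**Figure D5:**
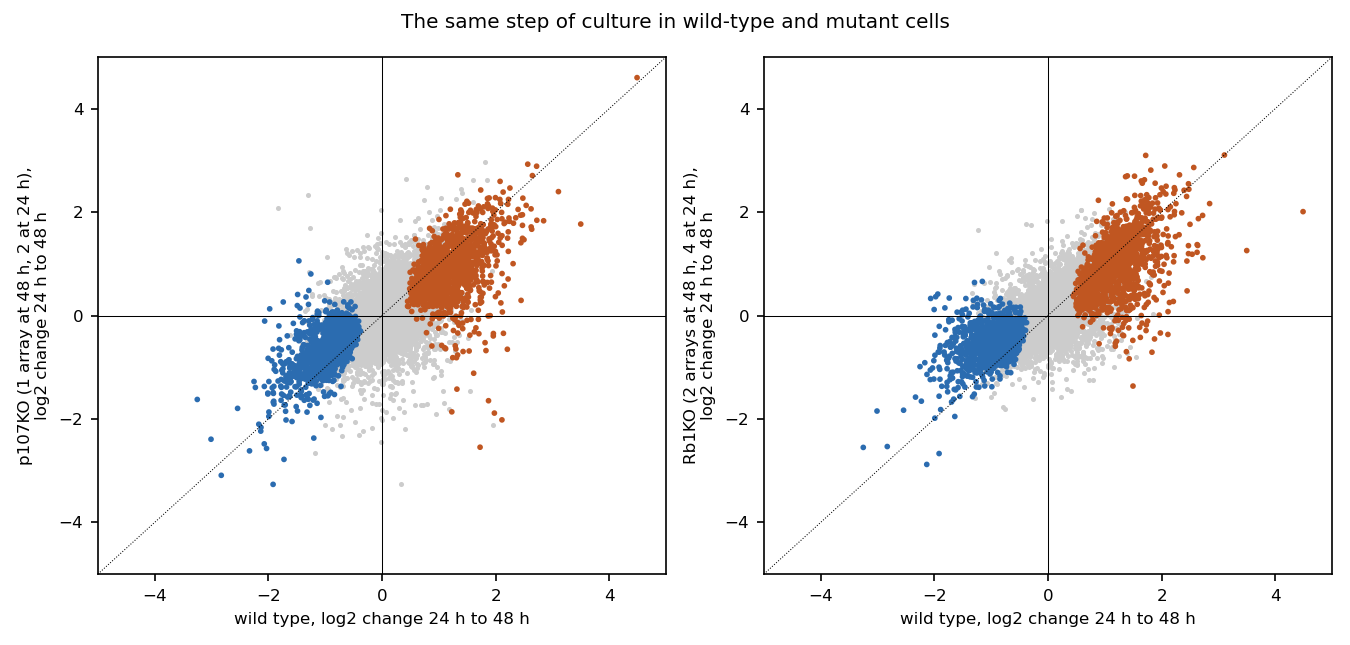
Log2 change from 24 h to 48 h of each tested gene in p107KO (left) and Rb1KO (right) against the change in WT, on log2(signal + 32); orange and blue genes rose or fell in WT, grey genes were not called there, and the dotted line marks equality. Most coloured points lie in the quadrants of equal sign.

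Whether the second-day change itself differed between genotypes was tested gene by gene. Against Rb1KO, 5 genes passed the threshold, 0.0458% of those tested, and 772 had an unadjusted p below 0.05. With only the WT and Rb1KO arrays of these times in the fit, no gene passed. The count was 0 without the second Rb1KO array at 48 h, 19 without the first, and 15 without the first Rb1KO array at 24 h. Slbp was 1 of the 5 and the only one of the 49 replication genes: it was at 17335 and 15954 and then 7179 and 5927 in WT, and in Rb1KO at 27203 to 32676 at 24 h and 23271 and 27422 at 48 h. The WT minus Rb1KO difference of the changes was -1.07 ± 0.20 (adjusted p = 0.0444). Orc6, Zfp367 and Gmnn, of the same list, had differences of -1.23 ± 0.25, -1.37 ± 0.27 and -0.95 ± 0.20 (adjusted p = 0.0552, 0.0552 and 0.0610), and did not pass. Lrr1, a subunit of a ubiquitin ligase that unloads the replicative helicase, was at 2721 and 2489.5 and then 1261 and 929.8 in WT, whereas in Rb1KO it was at 2010.2 to 2739 and then 2477 and 2970.1 (-1.46 ± 0.24, adjusted p = 0.0158). Against p107KO, 1 gene passed, 0.00916% of those tested, with 355 at an unadjusted p below 0.05. The count was 5 without the second p107KO array at 24 h, and 0 with only the WT and p107KO arrays of these times.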

How the data were processed

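The authors deposited 1 intensity per probe set and array, a MAS5 signal in linear units that GCOS 1.4 computed according to the submitters' processing notes. Detection calls and scanner files were not used here, and arrays have no read depth, so their number limits the precision. Trimmed means, without the top and bottom 2% of probe sets, were 491.9 to 497.7 in the 27 arrays. The platform annotation pairs 34945 of 45037 probe sets with a single gene symbol, 932 with several and 9160 with none. Symbols were updated through Entrez identifiers with the RefSeq gene table (34741 matched), which gave 18193 genes, of which 10916 were tested.

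Models with 1 mean per group (12 groups) were fitted to log2(signal + 32) with limma 3.58.1 in R 4.3.3 over all 27 arrays, with a variance prior that follows brightness. Residual degrees of freedom were 15, and the prior added 7.17. The alternatives are given in the closing section.

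The gene lists and members were chosen with earlier results of these data known. The rule for named genes took Rb1, Rbl1 and Rbl2, the 15 largest rises and 15 largest falls past the threshold whose brighter group lay above the median gene and whose arrays did not overlap, from each list up to 5 members that had the smallest adjusted p, the 3 brightest members of each cell type list, and Xist, Eif2s3y and Kdm5d. Members of a list that did not pass, and the genes whose change differed between genotypes, were named after their values were seen. No set test was run on the 34 lists.

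The replicate numbers were not treated as pairing arrays: deviations from the group means of same-numbered WT arrays correlated at r = 0.10 over 2 pairs. On simulated data with 100 genes changed 2-fold and 100 changed 4-fold among 10916, the 24 h to 48 h test in WT recovered 50% and 93%. Of its 148 calls 5 were false. Far fewer genes changed there than were called in the data, and the adjusted p depends on that number, so these shares need not hold here. Plots used matplotlib 3.10.9 (Python 3.11.15).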

Additional observations from a re-analysis of the deposited data

Results flagged for a closer look

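The second-day change differed between WT and Rb1KO in 5 genes and between WT and p107KO in 1, by limma's test of the difference itself. None of these tests passed when only the arrays of the groups compared were in the fit. Dennd6b, a gene of the DENN domain family, was at 60.3 and 60.9 at 24 h and 256 and 345 at 48 h in WT and at 234 to 330 and then 157 and 172 in Rb1KO, a difference of the changes of 2.54 (adjusted p = 0.00465). Serpind1, heparin cofactor II, which the liver secretes, was at 18.2 and 14.6 and then 126 and 85.6 in WT and at 105 to 185 and then 47.6 and 17.9 in Rb1KO, a difference of 2.86 (adjusted p = 0.00465). Both are dim in cultured cells: the WT change of Serpind1 was 2.60 with an added constant of 1 and 0.82 with 100, and that of Dennd6b 2.28 and 1.31. The dimmer probe sets of Dennd6b changed by only 0.24 to 0.48 in WT. With the mean over probe sets its WT change was 0.74 and did not pass (limma, adjusted p = 0.0626). For 1110002L01Rik the signals were 182 and 196 and then 82.6 and 53.7 in WT and 157 to 256 and then 323 and 376 in Rb1KO, a difference of -1.82 (adjusted p = 0.0444). Lrr1 and Slbp differed by -1.46 (adjusted p = 0.0158) and -1.07 (adjusted p = 0.0444). Pced1b was at 182 and 259 and then 266 and 332 in WT and at 474 and 286 and then 56.2 in the single 48 h array of p107KO, a difference of 2.59 (adjusted p = 0.0193).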

How the results depend on the processing

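The count of 2755 WT genes stayed within 1.5 times that value, between 2006 (equal medians) and 3709 (without the 4 arrays that correlated least with others of their time at 0 h and 24 h, namely the fifth Rb1KO array at 0 h and the first array of each knockout group at 24 h), under all 13 alternatives that kept the 4 WT arrays. Leaving out 1 WT array gave 1400 to 1997. The test of WT minus Rb1KO called 5 genes and moved most: 20 with an added constant of 1 and 2 with 100, 3 with no filter and 11 with the dimmest 60% left out, 26 after quantile normalization, 2 with equal medians, 14 with array weights, 43 without those 4 arrays and 0 with only the arrays compared. It called 0 to 19 when 1 array was left out. The test of WT minus p107KO called 1 gene, and 2 with an added constant of 1, after quantile normalization or without a variance trend. It called 0 with a constant of 100, with no filter, with the dimmest 60% left out, with equal medians, without those 4 arrays, with only the arrays compared and with the replicate number as a block, and 0 to 5 when 1 array was left out. The share of WT genes with the same sign in p107KO, 96.7%, was 95.4% with no filter, 98.4% with the dimmest 60% left out, 95.6% with the mean over probe sets, 98.1% with only the arrays compared and 94.4% with the replicate block, and 92.6% to 96.9% when 1 array was left out. With the replicate number as a block 2658 WT genes and 4 WT minus Rb1KO genes passed. Of the genes named, the sign turned for Rbl2 after quantile normalization (-0.0053) and with equal medians (-0.030), for Rb1 with the mean over probe sets (0.19), and, when 1 array was left out, for Hba-x (-1.59 to 0.14), Alb (-0.56 to 1.87) and Hbb-b2 (-0.010 to 0.37). None of these was called over all arrays. The causes of these shifts were not tested.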

Other observations

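Xist, the RNA that coats the inactive X chromosome, was at 4806 to 6454 in the WT arrays at 0 h, 4849 and 3514 at 24 h and 1656 and 1727 at 48 h. Both 48 h arrays lay below both 24 h arrays. In the fit over 27 arrays the change was -1.27 ± 1.94 (adjusted p = 0.681), with the spread taken from all groups. Whether the sex of the embryos enters that spread was not tested. With only the 7 WT arrays in the fit the adjusted p was 0.000806, and with only the 4 arrays compared it was 0.00498.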
